A study of Arabidopsis thaliana with 6 samples.

Results

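The transcripts described here are those that were lower in both vip5 and vip6 plants than in wild type (WT). A probe set was a member if the lower of its 2 WT intensities was at least 150 and at least 1.5 times the highest of its 4 mutant intensities. Of 22746 probe sets without the array's controls, 114 met this rule after 10 probe sets of defensin, lectin, flowering, glucosinolate and other genes, which met it too, were left out by name. That is 0.501% of the probe sets. The mirrored rule, with all mutant arrays at least 150 and at least 1.5 times both WT arrays, was met by 98 probe sets, or 0.431%. No gene was left out of that count by name, so its counterpart is the 124 probe sets found before genes were left out. Members were thus chosen by the intensities of all 6 arrays, so the gap between each mutant and WT is how the members were found, and it is given below as a description with no test. The rule depends on both WT arrays: it would take 347 probe sets without WT replicate 1 and 350 without WT replicate 2, against 138 to 147 without any single mutant array. Leaving out an array can only add probe sets, since fewer values then have to meet the rule.

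RNA of 3-week-old Arabidopsis thaliana plants was measured on oligonucleotide expression arrays, with 2 arrays of the vip5 mutant, 2 of the vip6 mutant and 2 of WT. The labels give no allele, strain background, tissue or growth condition, and are silent on whether replicates were separate plants, so p-values measure the spread between arrays and that spread between them may be technical. VIP5 and VIP6 are the plant counterparts of yeast Rtf1 and Ctr9, subunits of the Paf1 complex. In yeast this complex travels with RNA polymerase along transcribed genes and is needed for histone modifications that mark them. In Arabidopsis the VIP genes are known for keeping the flowering repressor FLC expressed, and mutants flower early. A list of 18 genes of the complex, its histone-modifying partners and the FLC family was drawn up for comparison. None of the 18 is paired with a probe set in the annotation used, so they were not analysed here, and the mutant labels were not checked against the mutated genes.

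The green leaf markers RCA, LHCB4.1 and LHCB4.2 are the 3 of 7 that could be matched. They summed to 59892 and 110394 in vip5, 57268 and 100517 in vip6 and 66447 and 90888 in WT. In every group this sum was higher on replicate 2. Of 4 root markers 2 were matched, PYK10 and EXPA7, and their summed intensity was 614 to 912 in the 4 mutant arrays against 1118 and 1146 in WT. PYK10, a root beta-glucosidase gene, was at 897 and 607 in vip5, 717 and 869 in vip6 and 1094 and 1085 in WT (limma adjusted p 0.450 in vip5 and 0.576 in vip6). EXPA7, a root hair expansin gene, lay at 15.2 and 6.9 in vip5, 10.7 and 10.3 in vip6 and 51.1 and 33 in WT, too dim to be tested. The part of root tissue in the members' lower values was not tested, and in bulk RNA fewer cells of a type and less RNA per cell cannot be told apart. The 1 matched of 6 flower markers, AT5G07230, lay between 144 and 199 in the mutants and at 159.9 and 163 in WT, and none of 6 seed markers was matched. Control transcripts added at hybridisation were 1.51 to 7.06 times as bright on arrays numbered 2 as on those numbered 1, over 16 probe sets in all 3 groups.

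The 114 members had a median of 43.6% of the WT intensity in vip5, ranging from 4.02% to 61.4%, and a median of 43.4% in vip6, ranging from 1.33% to 63.7%. Their median log2 difference from WT was -1.06 in both mutants. Over all 14323 tested probe sets the median was -0.0042 for vip5 and -0.012 for vip6. This log2 scale is that of intensity plus a pseudocount of 39.4, which shrinks the difference of dim probe sets. Most members lay close to the limit of the rule: the ratio of the lower WT to the highest mutant intensity had a median of 1.73, reached 2 in 28 members, 3 in 10 and 4 in 5. Just inside that limit were AT5G61660 and AT3G17350, with a ratio of 1.52 each, and just outside it ACLA-3 and THI2.1, with 1.49 each. At the intensity limit, AT5G07870 (152) and MAP1B (155) were just inside and AT2G07777 (149.5) and GIS (149) just outside. The annotation used gives a single gene for 59 members and several for 4, and 51 have no entry. Of the 58 with a locus, 57 are annotated as protein coding and 18, 5, 15, 9 and 11 lie on chromosomes 1 to 5.

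**Figure D1:**
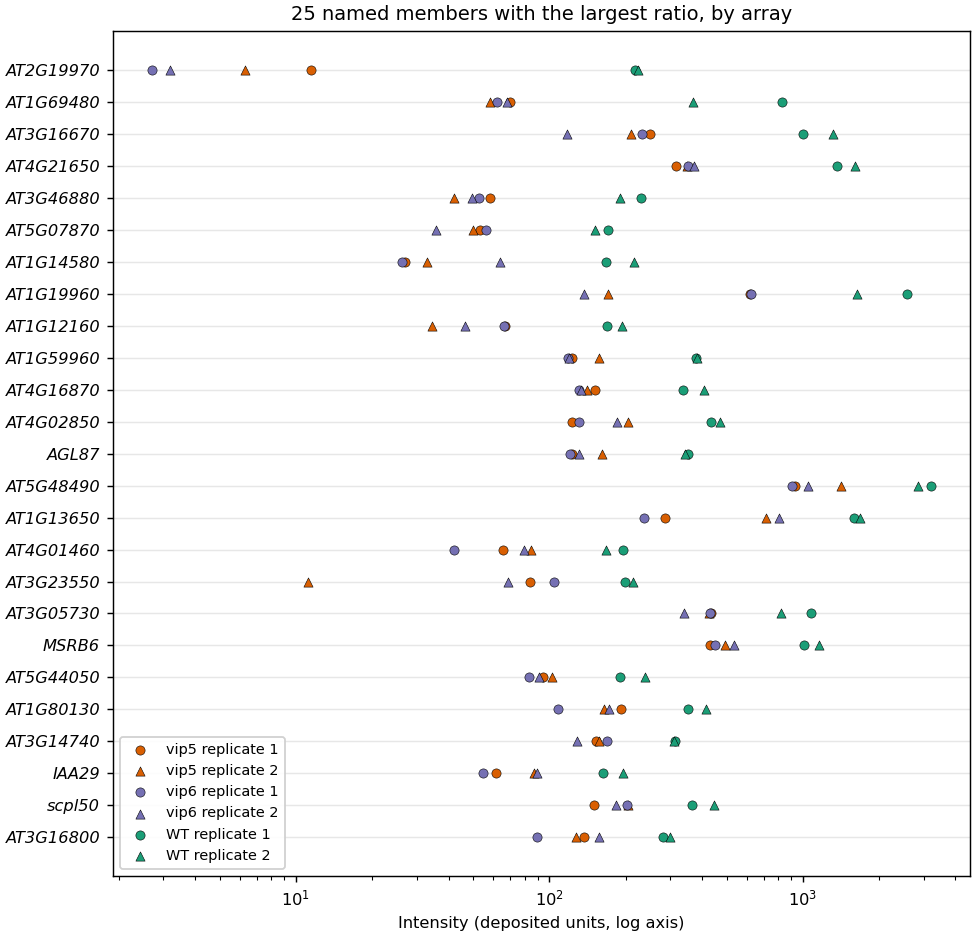
Intensity on each array (log axis) of the 25 named members with the largest ratio of the lower WT to the highest mutant intensity, with vip5 in orange, vip6 in purple and WT in green, circles for replicate 1 and triangles for replicate 2. The gap between the mutant and the WT arrays is set by the rule and widest for AT2G19970, at 18.9 times, while the vip5 and vip6 points lie among each other in most rows.

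By the ratio of the rule, the widest gap was that of AT2G19970, 1 of 4 members with a place in defence. AT2G19970 belongs to the CAP superfamily of secreted proteins, which includes the pathogen response marker PR1. Its intensity was 11.5 and 6.3 in vip5, 2.7 and 3.2 in vip6 and 218 and 225 in WT. The WT arrays were close to each other. The mutant values lay far under the pseudocount, where the array gives little information on which mutant is lower or how wide the gap is. On the log2 scale its difference from WT was -2.43 in vip5 and -2.62 in vip6. The unlisted probe set 245736_at had a wider one, at -2.63 and -2.66. AT3G05730, a gene for a defensin-like peptide, was at 433 and 427 in vip5, 431 and 340.3 in vip6 and 1073 and 817 in WT. AT3G47540, of the chitinase family, whose members cut the chitin of fungal walls, was at 181 and 205 in vip5, 169.8 and 219.8 in vip6 and 391 and 563 in WT. The wound-responsive family gene AT4G28240 was at 1508 and 1558 in vip5, 1593 and 1698 in vip6 and 3246 and 2793 in WT. These last 3 lay between 40.5% and 54.5% of WT in the mutants, where the median of all members was 43.6% in vip5 and 43.4% in vip6.

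The members held 4 transport genes, 3 of them MATE efflux carriers, membrane proteins that export small organic molecules. AT1G69480, of the PHO1 family that is known for phosphate export, was at 69.8 and 58.1 in vip5, 62 and 67.9 in vip6 and 824 and 368 in WT. Its 4 mutant arrays lay within 58.1 to 69.8, while the WT arrays differed by over 2-fold, so the size of its gap rests on which WT array is read. Of the MATE genes, AT5G44050 was at 94.2 and 102 in vip5, 83 and 90.8 in vip6 and 190 and 238 in WT. AT1G33080 was at 113 and 94 in vip5, 85 and 74.8 in vip6 and 185 and 182 in WT. AT3G23550 was at 83.8 and 11.2 in vip5, 104 and 68.6 in vip6 and 199 and 214 in WT, and its second vip5 array stood apart from the other 3 mutant arrays.

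Peptidases were encoded by 5 members. The subtilase gene AT4G21650, which encodes a secreted serine protease, was at 316 and 349 in vip5, 353 and 372 in vip6 and 1362 and 1605 in WT. Its log2 difference from WT, which follows in part from the rule that chose the members, was -2.03 in vip5 and -1.92 in vip6. All 4 mutant arrays lay between 316 and 372, and both vip6 arrays were just above both vip5 arrays. The serine carboxypeptidase-like gene scpl50 was at 150.4 and 204 in vip5, 202 and 184 in vip6 and 367 and 446 in WT. MAP1B encodes a methionine aminopeptidase, which removes the first residue of new proteins, and was at 82.4 and 74.1 in vip5, 87.6 and 98.6 in vip6 and 201 and 155 in WT. AT3G05350, a metallopeptidase gene, was at 502 and 696 in vip5, 519 and 477 in vip6 and 1072 and 1058 in WT. AT1G62290 encodes an aspartyl protease with a saposin-like domain, of the type found in vacuoles, and was at 107 and 109 in vip5, 73.6 and 71 in vip6 and 206 and 168 in WT. Both vip6 arrays were below both vip5 arrays for AT1G62290 and above them for MAP1B, while the mutants overlapped for scpl50 and AT3G05350. Such separation is common with 2 arrays each: over all tested probe sets, vip6 was above in 12.2% and below in 13.4%.

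Enzymes of oxidation and reduction were encoded by 6 members. AT1G12160, a flavin-containing monooxygenase gene, was at 66.8 and 34.4 in vip5, 66.2 and 46.4 in vip6 and 169.5 and 194 in WT. AT1G59960, for an aldo-keto reductase, was at 123 and 157 in vip5, 119 and 119.7 in vip6 and 380.1 and 384 in WT. MSRB6 encodes a methionine sulfoxide reductase, which repairs oxidised methionine, and was at 430.3 and 491 in vip5, 451 and 537 in vip6 and 1008 and 1159 in WT. The glutaredoxin gene AT5G18600 was at 2899 and 2818 in vip5, 3245 and 2903 in vip6 and 5886 and 5104 in WT. The berberine bridge enzyme-like gene AT5G44400 stood at 52.3% of WT in vip5 and 52% in vip6, and AT3G46490, for an oxygenase that uses iron and 2-oxoglutarate, at 49% of WT in vip5 and 43.1% in vip6. None of the 6 fell under 27.8% of WT, which was the vip5 value of AT1G12160.

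Cell wall and cytoskeleton genes numbered 6. AT3G16670, of the Ole e 1 and extensin family of wall proteins, was at 249 and 210 in vip5, 232 and 118 in vip6 and 1001 and 1309.9 in WT. It had the widest gap of the 6, with log2 differences of -2.14 in vip5 and -2.52 in vip6. TUB1, a beta tubulin gene, was at 330.4 and 507 in vip5, 418 and 485 in vip6 and 853 and 1178 in WT. GH9B8, which encodes an endoglucanase of the cellulase family, was at 359.9 and 468 in vip5, 464 and 394 in vip6 and 825 and 725 in WT. AT5G11420, for a wall protein of the DUF642 family, was at 2096 and 1949 in vip5, 1808 and 1853 in vip6 and 3373 and 4358 in WT. The genes of the glucuronosyltransferase GlcAT14C (AT2G37585), which decorates arabinogalactan proteins, and of a glycine-rich protein (AT5G61660) were at 50.8% and 61.4% of WT in vip5 and at 55.9% and 56.6% in vip6. Without AT3G16670, the wall and cytoskeleton genes lay between 41.2% and 61.4% of WT.

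Of the lipid genes, the lipid transfer protein gene AT5G48490 was at 933 and 1411 in vip5, 908 and 1048 in vip6 and 3192 and 2851 in WT. The GDSL lipase gene AT1G33811 was at 396 and 473 in vip5, 357 and 551 in vip6 and 912 and 1189.5 in WT. A second one, AT1G09390, stood at 57.9% of WT in vip5 and 46.3% in vip6. The glucosylceramidase family gene AT4G10060 stood at 56.5% of WT in vip5 and 51.1% in vip6. Among the other enzymes, the acyltransferase gene AT5G07870 was at 53.4 and 49.8 in vip5, 56.4 and 35.7 in vip6 and 171 and 152 in WT, close to the intensity limit in WT. AT4G02850, of the PhzF family, was at 123 and 204 in vip5, 130.4 and 184 in vip6 and 435 and 471 in WT. The methyltransferase gene AT3G13440 stood at 46.5% of WT in vip5 and 51.1% in vip6, and AT5G56260, of the RraA family, at 49.7% of WT in vip5 and 53.8% in vip6.

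Of the named members, 5 encode nuclear regulators and 4 act in signalling. AT1G14580 encodes a zinc finger transcription factor and was at 26.9 and 32.9 in vip5, 26.1 and 63.8 in vip6 and 168 and 217 in WT, the widest gap among the 5 nuclear regulators. AGL87, a MADS box gene, was at 123 and 162 in vip5, 121 and 131 in vip6 and 351 and 342 in WT. The bHLH gene AT4G01460 was at 65.7 and 84.5 in vip5, 42.2 and 79.6 in vip6 and 195 and 167 in WT. IAA29 encodes a repressor of auxin response and was at 61.4 and 87 in vip5, 54.7 and 89 in vip6 and 163 and 195 in WT. AT1G76110, for a DNA-binding protein with HMG box and ARID domains, stood at 58.2% of WT in vip5 and 55.4% in vip6. In signalling, the phosphatase gene AT3G16800, of the 2C type, was at 137 and 127 in vip5, 89.4 and 157 in vip6 and 281 and 299.8 in WT. The calmodulin-like gene AT2G41090 was at 4433 and 2313 in vip5, 4769.8 and 3049 in vip6 and 10317 and 7484 in WT, with the arrays numbered 1 above those numbered 2 in every group. ETP2, whose F-box protein targets the ethylene signalling protein EIN2, stood at 55.7% of WT in vip5 and 57.2% in vip6, and the TRAF domain gene AT3G28220 at 49.8% of WT in vip5 and 54.7% in vip6.

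Several of the widest gaps belong to genes whose role is left unnamed here. AT3G46880 was at 58.1 and 42.2 in vip5, 53 and 49.5 in vip6 and 229.9 and 190.2 in WT. AT4G16870, annotated as a pseudogene, was at 152 and 141 in vip5, 131 and 133 in vip6 and 338 and 407 in WT. AT1G80130 was at 192 and 164 in vip5, 108 and 172 in vip6 and 353 and 416 in WT, and AT3G14740, for a RING or PHD finger protein, at 153 and 156 in vip5, 169 and 129 in vip6 and 313 and 309 in WT. Among members with no listed gene, probe set 245736_at was at 1042 and 724 in vip5, 1045 and 693 in vip6 and 5204 and 5989 in WT. By the ratio of the rule this was the third widest gap of all members, after AT2G19970 and AT1G69480. For 245736_at the arrays numbered 1 were above those numbered 2 in both mutants and below in WT. The next was 264324_at, at 69.6 and 83.9 in vip5, 66.5 and 40.1 in vip6 and 397 and 312 in WT. Probe set 258791_at was at 308 and 210.2 in vip5, 354 and 247 in vip6 and 1216 and 1308 in WT, and it too was higher on number 1 in both mutants. Probe set 263431_at was at 562 and 591 in vip5, 575 and 597 in vip6 and 1826 and 1901 in WT, with its 4 mutant arrays between 562 and 597. The 249727_at values were 101 and 120.3 in vip5, 81.8 and 182 in vip6 and 668 and 523 in WT, with the second vip6 array above the other 3 mutant arrays. Of the 4 members that name several genes, 249600_s_at had the widest gap, at 120.1 and 109 in vip5, 72.7 and 98.6 in vip6 and 487 and 809 in WT.

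The rule treats the 4 mutant arrays alike and did not compare vip6 with vip5. It does require low values in both, so some agreement between the mutants is set by the choice of members. Before genes were left out by name, 217 probe sets met it for the vip5 arrays alone and 200 for the vip6 arrays alone. Of these, 57.1% and 62% met it for both mutants. Both sets were taken against the same WT arrays, so part of this overlap can come from the WT values. The share to be expected from that was not estimated. No member passed the limma test of vip6 against vip5 at an adjusted p of 0.05, and neither did any other of the 14323 tested probe sets, which is 0% called. The lowest adjusted p among the members rounds to 1. At an unadjusted p below 0.05, 1 of 114 members (0.877%) passed, against 1.54% of all tested probe sets, 0.775% of them lower in vip6 as this member was. It was the unlisted probe set 248970_at, named here after its values were seen, at 77.8 and 79.5 in vip6 and 107 and 147 in vip5, a log2 difference of -0.49 with a 95% interval of -0.94 to -0.035. With the replicate number as a block in the fit, no member was called against 0.00698% of all tested probe sets, and 5 had an unadjusted p below 0.05, against 3.57%. All 114 members passed the filter on dim probe sets, since both WT arrays are high by the rule, and 19 of them were above it on fewer than 2 mutant arrays.

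The members lay on both sides of equality: 54 had a higher mean in vip6 and 60 a lower one. Both vip6 arrays were above both vip5 arrays in 11 members (9.65%, against 12.2% of all tested probe sets) and below them in 17 (14.9%, against 13.4%). The median log2 difference, vip6 minus vip5, was -0.023 over the members and -0.0078 over all tested probe sets, and it was -0.0079 within replicate number 1 and -0.03 within number 2. On this scale the difference was under 0.5 in size for 113 members (99.1%, against 97.9% of all tested probe sets). The scale shrinks dim members: by the ratio of mean intensities without the pseudocount, 7 members differed by 0.5 or more, 4 of them above the filter on fewer than 2 mutant arrays. AT2G19970 was the farthest of the 7, with means of 2.95 in vip6 and 8.9 in vip5. With the pseudocount the exception was AT3G23550, at 104 and 68.6 in vip6 and 83.8 and 11.2 in vip5, where the estimate of 0.66 had an interval of -0.24 to 1.55 and was 0.22 within number 1 and 1.09 within number 2. Of the 95 members above the filter on at least 2 mutant arrays, the whole 95% interval lay within 2-fold either way for 88 and reached beyond for 7. For the other 19 the pseudocount narrows the interval, and no such bound is read from it. The intervals are not adjusted for the number of members. The interval was -0.31 to 0.54 for AT4G21650, -0.35 to 0.54 for MSRB6 and -1.04 to 0.29 for AT3G16670. A difference of under 2-fold between the mutants is thus not excluded for any of these, and the interval of AT3G16670 reaches beyond 2-fold.

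**Figure D2:**
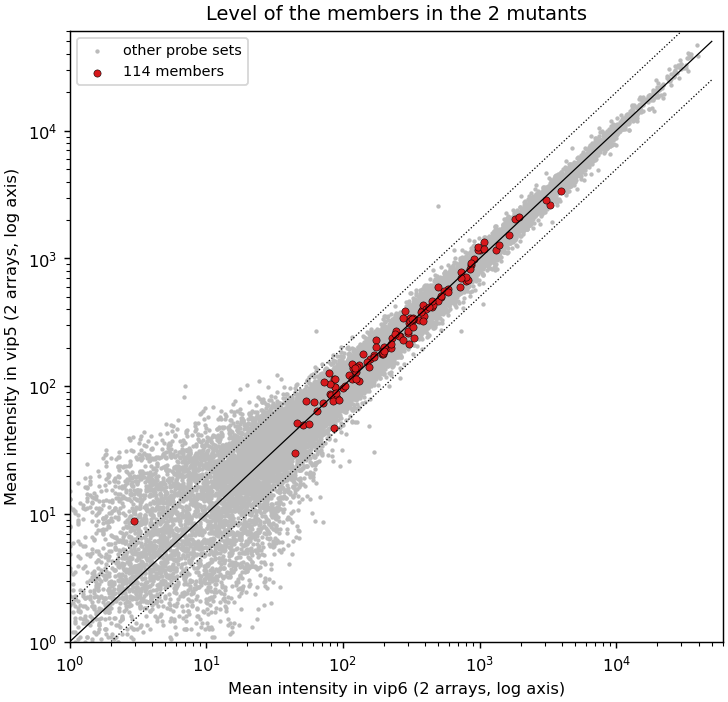
Mean intensity of each probe set in vip6 (horizontal) and vip5 (vertical), 2 arrays each, log axes, with the 114 members in red over all others in grey, a solid line at equality and dotted lines at 2-fold. The members follow the line of equality, with 54 higher in vip6 and 60 lower. AT2G19970 at the lower left has 2.95 in vip6 and 8.9 in vip5.

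**Figure D3:**
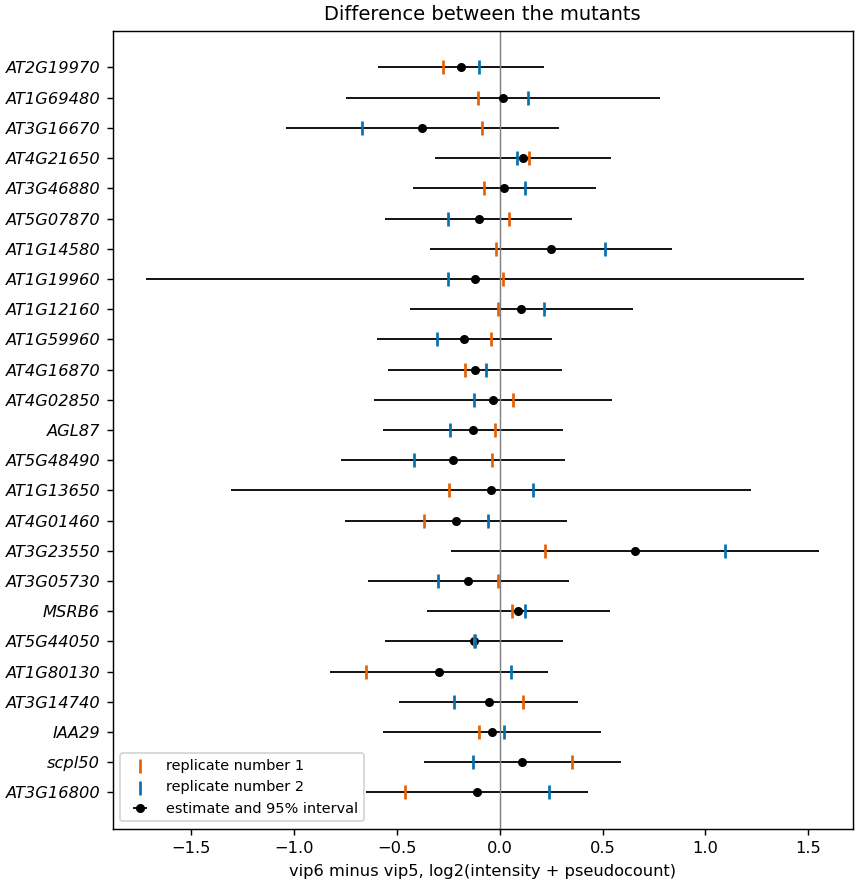
Difference vip6 minus vip5 on the log2(intensity + pseudocount) scale for the 25 named members with the largest ratio, as the estimate with its 95% interval and as the value within replicate numbers 1 and 2. Every interval shown contains 0. The widest are those of AT1G19960 and AT1G13650, and the estimate farthest from 0 is that of AT3G23550, at 0.66.

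Some members differed clearly between the replicate numbers within each mutant. AT1G19960 was at 618 and 171 in vip5, 626 and 137 in vip6 and 2582 and 1629 in WT, with both mutants over 3-fold higher on number 1 and WT higher there too. AT1G13650 went the other way in the mutants, at 286 and 714 in vip5 and 235 and 803 in vip6, while WT was at 1596 and 1678. The unlisted probe set 250832_at was at 153 and 339 in vip5, 117 and 411 in vip6 and 835 and 1210.3 in WT. These 3, named for their values, are the members that differed by over 2-fold between numbers the same way in both mutants, 2.63% of the set, against 1.95% of the other tested probe sets. The differences between numbers had the same sign in vip5 and vip6 for 76 of 114 members (66.7%), against 68.8% of the other tested probe sets. Across members the log2 ratios of number 2 to number 1 had a correlation of 0.632 between vip5 and vip6, of 0.220 between vip5 and WT and of 0.251 between vip6 and WT, where the other tested probe sets had 0.623, 0.290 and 0.300. Members share the arrays, so these correlations describe 2 pairs of arrays. The labels do not say what the number marks, and the part of the brighter hybridisation controls on number 2 was not tested.

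**Figure D4:**
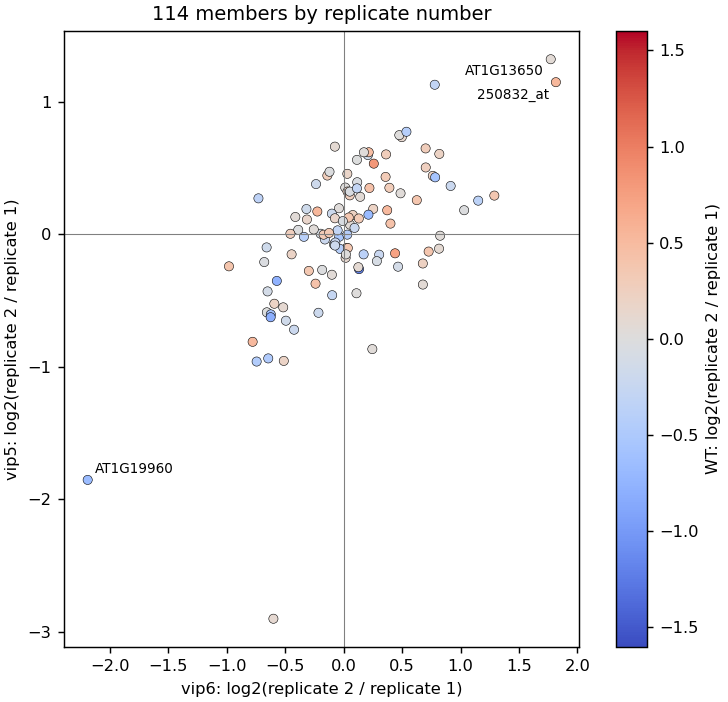
Ratio of replicate 2 to replicate 1 (log2) of the 114 members in vip6 (horizontal) and vip5 (vertical), coloured by the same ratio in WT. Points run from lower left to upper right (correlation 0.632), and the 3 labelled members differ by over 2-fold the same way in both mutants. The lowest point is AT3G23550, whose second vip5 array was at 11.2.

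The rule was applied to every probe set, genes next to members and genes of the same family included. In the order of protein-coding genes, 57 named members could be placed. None of them lay next to another gene that met the rule, genes left out by name included. Pairs in which both genes were left out by name were not looked at. The other members were not placed, so adjacency among them could not be seen. Next to 31 members, 38 adjacent genes were tested with 39 probe sets. None of the 39 passed the limma test against WT in vip5 or in vip6, where 0.0768% and 0.105% of all tested probe sets did. At an unadjusted p below 0.05, 2 (5.13%) passed in vip5 and 5 (12.8%) in vip6, against 10.9% and 9.88% of all tested probe sets. A fit that had the replicate number as a block called none either, where 2.19% of all tested probe sets were called in vip5 and 1.77% in vip6. Their median log2 difference was -0.045 in vip5 and -0.022 in vip6, and single values ran from -0.78 to 0.51 in vip5 and lay between -0.64 and 0.55 in vip6. AT3G16660, beside AT3G16670 and of the same Ole e 1 family, had -0.086 in vip5 and -0.044 in vip6, where AT3G16670 had -2.14 and -2.52. AT4G02860, a second PhzF gene beside AT4G02850, had -0.086 in vip5 and -0.037 in vip6. AT5G44410, a berberine bridge enzyme-like gene beside AT5G44400, had -0.093 and -0.35. The lowest neighbour was AT1G59970, beside AT1G59960, with -0.78 in vip5 and -0.64 in vip6 (limma adjusted p 0.206 and 0.308).

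**Figure D5:**
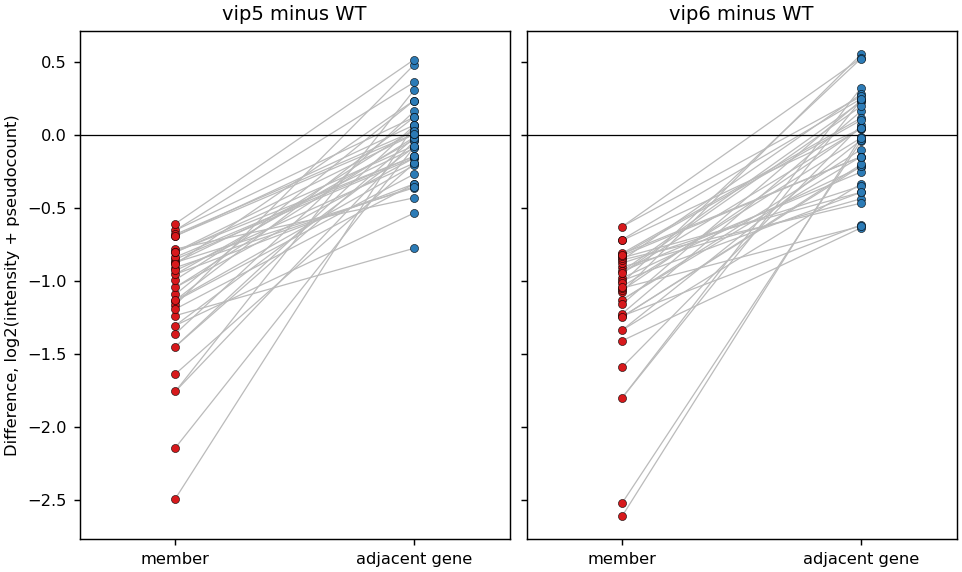
Log2 difference from WT in vip5 (left) and vip6 (right) of the 31 members that have a tested adjacent gene (red) and of the 39 probe sets of those adjacent genes (blue), with a line joining each pair. The members' values are low by the rule, and the adjacent genes spread around 0, between -0.78 and 0.51 in vip5 and between -0.64 and 0.55 in vip6.

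The families of 6 members were compared through genes that share the letters of their symbol and did not meet the rule. Any relative that met it was left out, so the differences from WT of those kept are in part set by the rule. Of the relatives kept, 33 were tested. None passed the limma test in either mutant, where 0.0768% of all tested probe sets did in vip5 and 0.105% in vip6. At an unadjusted p below 0.05, 8 relatives (24.2%) passed in vip5, against 10.9% of all tested probe sets, and 6 (18.2%) in vip6, against 9.88%. Of these, AGL42, scpl46, SCPL27 and scpl31 were lower than WT in vip5, and the rest were higher. In vip6, SCPL27 and scpl31 were lower and the rest higher. With the replicate number as a block, 1 relative (MSRB9) was called in vip5 and 3 (MSRB9, scpl47 and scpl25) in vip6, each higher than in WT. These are 3.03% and 9.09% of the relatives, against 2.19% and 1.77% of all tested probe sets in that fit. The median log2 difference of the 33 relatives was 0.019 in vip5 and 0.029 in vip6. In the methionine sulfoxide reductase family, MSRB6 is the member, at -1.17 in vip5 and -1.08 in vip6. MSRB5, which neighbours it, was at 1305 and 1389 in vip5, 1243 and 1615 in vip6 and 1147 and 796 in WT, log2 differences of 0.48 and 0.55. MSRB9 was at 335 and 241 in vip5, 362 and 228 in vip6 and 134 and 112 in WT, a log2 difference of 1.0 in vip5 (limma adjusted p 0.23) and 1.02 in vip6 (adjusted p 0.241). MSRB3 had a difference of -0.011 and 0.029. The other beta tubulin genes TUB5, TUB6, TUB7 and TUB9 had log2 differences of 0.029, -0.057, 0.0047 and 0.51 in vip5, and in vip6 they were -0.016, 0.073, 0.048 and 0.39. TUB1 itself had -1.21 in vip5 and -1.09 in vip6. Among 16 other serine carboxypeptidase-like genes the medians were 0.0019 and -0.066 in vip5 and vip6. Close relatives can cross-hybridise, which was not checked here.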

How the data were processed

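The deposited table holds 1 linear intensity per probe set and array for 6 arrays, 2 each of vip5, vip6 and wild-type plants. The sources used here do not name the software with which the authors made these intensities. The deposited intensities had a common mean on all arrays once 2% of the values were trimmed at each end. They were used as deposited. No column of another sample was in the table.

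Differences were fitted with limma 3.58.1 (lmFit, eBayes) in R 4.3.3 on log2(intensity + 39.4), the pseudocount being the median of the arrays' 25th percentiles. All 6 arrays entered 1 fit with 3 group means. The 14323 probe sets above the 40th percentile of their array on at least 2 arrays were tested, with Benjamini-Hochberg adjustment over all of them at 0.05, two-sided. The fit was tested on simulated data. Figures were drawn with matplotlib 3.10.9.

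The members and lists were chosen with earlier results of these data known. Named were the 25 single-gene members with the largest ratio of the lower WT to the highest mutant intensity, members of a class with at least 3 named genes, the first 5 unlisted probe sets, and the 2 nearest probe sets on each side of each limit. Gene names come from the platform's annotation, where 59 of 114 members name 1 gene, and gene order from the RefSeq annotation of TAIR10.1. Functional classes were assigned by hand from background knowledge, since the gene table used holds no product names. The comparison of neighbours and relatives was added after the data were seen. Alternatives were another ratio or intensity limit, quantile normalization, 2 other pseudocounts, no filter, the replicate number as a block, a trended and robust variance, only the arrays of both groups, and each array left out.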

Additional observations from a re-analysis of the deposited data

How the results depend on the processing

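The number of members moved with the limits of the rule, to 269 at a ratio of 1.3 and 28 at a ratio of 2, while intensity limits of 100 and 300 gave 138 and 85 and quantile normalization 103, of which 98 were members. Leaving out 1 array, which can only add probe sets, gave 138 to 350. No member passed the test of vip6 against vip5 under any alternative run, and no neighbour passed against WT in either mutant. The median vip6 minus vip5 difference was -0.0058 after quantile normalization and ran from -0.062 to -0.0030 with 1 array left out. With the replicate number as a block, 1 of 33 relatives passed in vip5 (MSRB9, adjusted p 0.0287) and 3 in vip6 (MSRB9 0.031, scpl47 0.0413 and scpl25 0.048), each higher than in WT. That is 3.03% and 9.09% of the relatives, where the block called 2.19% and 1.77% of all tested probe sets. No relative passed under the other alternatives. The block changed no call of a member between the mutants and none of a neighbour, and over all tested probe sets it called 313 in vip5 and 253 in vip6 against WT, against 11 and 15 without it, and 1 between vip6 and vip5, against 0 without it. The deviations of same-numbered arrays had correlations of 0.655 for vip5 and vip6, 0.306 for vip5 and WT and 0.308 for vip6 and WT, and with 2 numbers this does not establish a pairing. The Paf1 complex list was not run under any setting, since no probe set is paired with its genes. With 2 arrays a group, the median half-width of a member's 95% interval for vip6 minus vip5 was 0.49 on the log2 scale, and 14 members were above the 40th percentile on no mutant array, so their mutant values lie near the dim end of the signal.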
